A study of Homo sapiens with 12 samples.

Results

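Lactic acidosis was compared with control in KKU-213A, an established cell line from a human cancer of the bile ducts (cholangiocarcinoma) that the labels call mixed papillary and non-papillary. All genes of the table that sets the lactic acidosis libraries against the control libraries were taken, 4279 of the 5308 genes found in any of the 3 tables of the series, and 6 of its 12 libraries. Both groups grew in low-glucose DMEM (a standard culture medium) with 10% fetal bovine serum. Control cells had no further addition. Lactic acidosis cells were moved stepwise, from 25% (v/v) of the acid medium upward, into medium with 25 mM L-lactate and 25 mM of the buffer HEPES, brought to pH 6.7 with hydrochloric acid, and were kept in their medium for at least 5 passages. Poly(A) RNA was sequenced as single-end reads of 75 nt, in 3 libraries per group. Lactate, acid, buffer, chloride and time in the medium changed together and cannot be told apart. A single cell line was studied, and whether a group's 3 libraries are separate cultures is not in the labels, so each p measures the spread between these libraries, which may be technical.

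Lactate and protons build up in tumours that ferment glucose, and cells carry both across the membrane together through monocarboxylate transporters. Acid outside a cell lowers the pH inside it, and carbonic anhydrases, sodium-proton exchangers and bicarbonate transporters act against that. Several stress programmes are known to sense such conditions, among them the heat shock response to misfolded protein in the cytosol, and the ATF4 response to scarce amino acids or to trouble in the endoplasmic reticulum. Growth factor signals through the MAP kinases, and mechanical signals through YAP and TAZ, are known to set genes of adhesion, matrix and movement in epithelial tumours.

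The deposited values are expression levels that take gene length and library size into account, and differences are of log2(value + 1), lactic acidosis minus control, with the standard error (SE) of the difference over 3 libraries against 3. A gene was called at a limma adjusted p under 0.05, with Benjamini-Hochberg adjustment over all 4279 genes. The submitters kept the table's genes on these same libraries, so most were bound to differ and the calls describe sizes and spread, not independent evidence. Of the table's genes 86.1% were called, 55.3% higher and 30.8% lower. At least 2-fold and called were 17.5%, of which 442 genes (10.3%) were higher and 307 (7.17%) lower. Groups did not overlap in 90.2% of genes (58.2% higher and 32% lower), and 58.9% of genes had the higher mean in lactic acidosis and 41.1% the lower. The scale bears on these counts: when the libraries were rescaled to the deposited group means ("rescaled"), the median difference of all genes fell by 0.10 on the log2 scale from 0.45. When each library was centred on its median deviation from the gene means ("centred"), the median difference fell by 0.44. That deviation was taken over genes with a mean of at least 10 only, so genes of low level had no part in setting the shift. Higher genes made up 64.3% of calls as deposited, 58.7% rescaled and 36.7% centred, and 59.0%, 46.2% and 15% of calls of at least 2-fold. Rescaled, 97.5% of genes were called (57.2% higher, 40.2% lower), 16.1% at 2-fold or more (7.43% higher, 8.67% lower), and groups were apart in 99.2% (58.4% higher, 40.8% lower). The deposited group means come from the submitters' own comparison of these libraries. Rescaled shares are therefore no independent check on the calls. Centred, 64.8% were called (23.7% higher, 41% lower), and 20.9% at 2-fold or more (3.13% higher, 17.8% lower). Counts of gene groups are therefore given as deposited and, in brackets, rescaled and centred, and a rise below about 0.45 lies under the median of the table. Each count is to be read beside the table's shares on the same scale, and several lists lay near them. Read depth is not given by the files, so no counting error could be set.

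**Figure D1:**
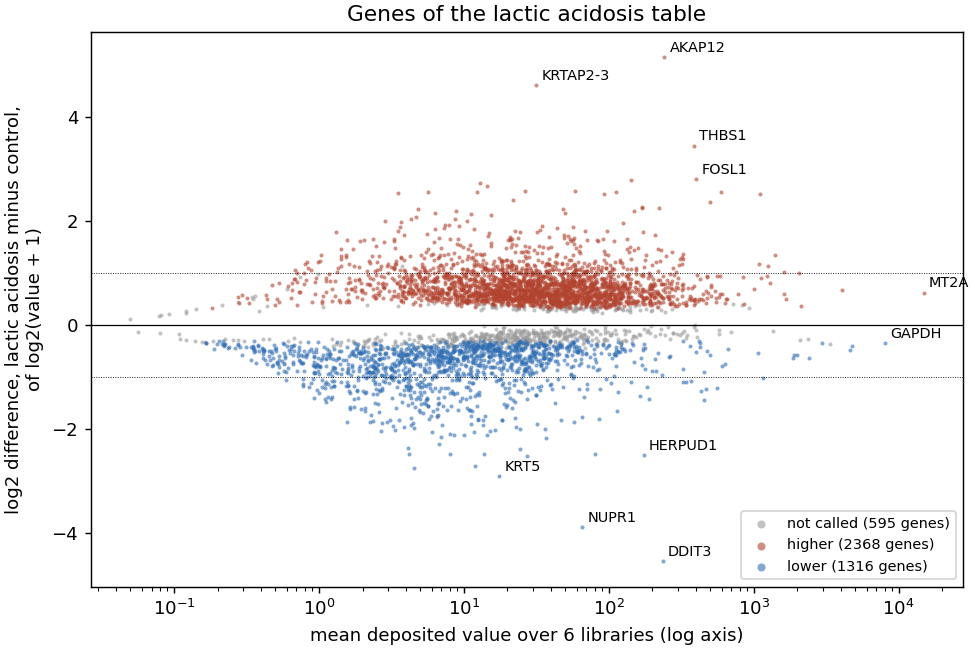
Log2 difference, lactic acidosis minus control, of log2(value + 1) for each of the 4279 genes against its mean deposited value over 6 libraries (log axis), with genes called higher in red, genes called lower in blue and uncalled genes in grey. The dotted lines mark 2-fold, and red points crowd the right while blue points spread down at the left.

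Direction went with level. When the genes were split by mean value into 5 equal bins, in the lowest bin (0.05 to 5.34), 32.7% had a higher mean in lactic acidosis, against 49.9%, 61.4%, 72.0% and 78.6% in the next bins. Centred, which shifts the table by 0.44, the shares were 32.7%, 48.1%, 55.2%, 57.8% and 60.9% from the lowest bin to the highest. The lowest bin had a median log2 difference of -0.49 and the highest bin, with means from 66.4, a median of 0.54. The level entered both axes, and the part of level in these counts was not tested.

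The control libraries differed among themselves more than the lactic acidosis libraries did. The median SD of log2 values was 0.155 in control and 0.0851 in lactic acidosis after rescaling, and the control SD was the larger in 3259 of 4279 genes. Control replicate 3 was the control library nearest to the lactic acidosis mean in 57.6% of genes, and control replicate 1 was the farthest in 2600. In 111 genes the rescaled control values spanned more than 2-fold, and in 100 of these control replicate 3 was nearest and in 105 control replicate 1 was farthest. DDIT3, HERPUD1, THBS1 and UHRF1, described below, show this order. On the deposited scale the values of control replicate 1 also lie low as a whole, since the scale factors that restore the deposited group means were 1 for that library, 0.799 and 0.774 for the other control libraries and 0.762 to 0.808 for lactic acidosis. The number of genes at least 2-fold higher in lactic acidosis was 246 without control replicate 1 and 690 without control replicate 3, in place of 442.

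**Figure D2:**
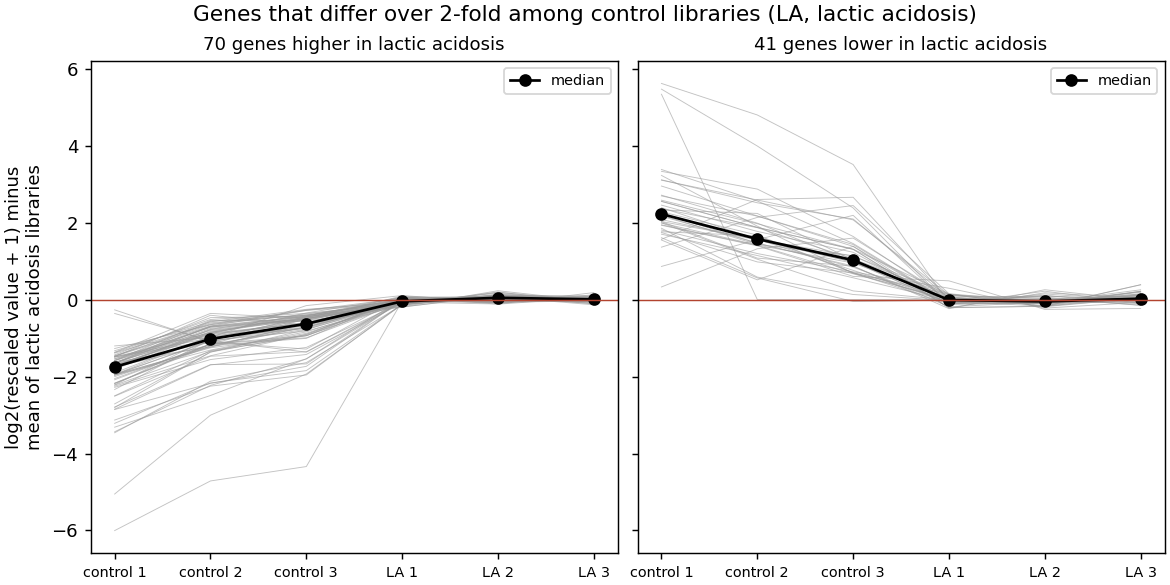
Rescaled log2(value + 1) of each library minus the mean of the lactic acidosis libraries (LA), for the 111 genes whose control libraries span more than 2-fold, 70 higher and 41 lower in lactic acidosis. Grey lines are genes and black points medians, and control 3 stands nearest to the lactic acidosis libraries, which lie together at 0.

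The largest rise was that of AKAP12, a scaffold that holds protein kinase A at the cell cortex. AKAP12 was at 4.78, 16.4 and 22.4 in the control libraries and 454, 493 and 463 in lactic acidosis (log2 difference 5.14, SE 0.42, limma adjusted p = 5.60e-05). The lowest lactic acidosis library was over 20 times the highest control library. KRTAP2-3, a keratin-associated protein of the hair shaft, rose, at 0.98 to 2.49 in control and 58.0 to 63.3 in lactic acidosis (log2 difference 4.61, SE 0.20), with 35% of its 75-base windows shared with another gene. THBS1, the matrix glycoprotein thrombospondin 1, was at 15.2, 82.5 and 180.1 in the control libraries and 618, 743 and 685 in lactic acidosis (log2 difference 3.45, SE 0.69). Its control libraries differed widely, yet no control library reached the lowest lactic acidosis library.

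FOSL1, a subunit of the AP-1 transcription factor, was at 56.5, 115 and 144 in the control libraries and 642, 726 and 705 in lactic acidosis, a log2 difference of 2.81 (SE 0.29). G0S2, an inhibitor of triglyceride lipase, was at 29.8 to 44.4 in control and 221 to 275 in lactic acidosis, and MGLL, which splits monoglycerides, at 5.15 to 9.14 in control and 41.1 to 48.9 in lactic acidosis. INHBA, which encodes a subunit of activin, was at 2.22 to 3.47 in control and 21.8 to 25.03 in lactic acidosis (log2 difference 2.72). ANO1, a calcium-activated chloride channel, was at 8.04 to 25.02 in control and 91.0 to 106 in lactic acidosis. CA2, a cytosolic carbonic anhydrase that interconverts carbon dioxide and bicarbonate, was at 1.06, 1.12 and 0.64 in the control libraries and 10.3, 10.3 and 10.7 in lactic acidosis (log2 difference 2.57, SE 0.14, limma adjusted p = 1.35e-05). CYR61, a matricellular YAP target, was at 77.8 to 348 in control and 985 to 1003 in lactic acidosis. MYEOV, whose role is less settled, was at 2.26 to 4.54 in control and 24.2 to 26.6 in lactic acidosis. Genes were named here only where the groups did not overlap, and each of these 11 rises was above 2-fold on all of the scales.

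The largest fall was that of DDIT3, which encodes CHOP, the transcription factor of prolonged stress. DDIT3 was at 678, 481 and 203 in the control libraries and 15.1, 17.0 and 17.0 in lactic acidosis (log2 difference -4.55, SE 0.36, limma adjusted p = 4.86e-05), with 25% of its windows shared with another gene. NUPR1, a small chromatin protein of the same stress programme, was at 235, 105 and 34.5 in the control libraries and 4.90, 6.41 and 5.25 in lactic acidosis (log2 difference -3.89, SE 0.54). In both genes control replicate 1 was highest and control replicate 3 lowest, and every control library was above every lactic acidosis library. HERPUD1, a part of the machinery that clears misfolded protein from the endoplasmic reticulum, was at 390.2, 355 and 155 in the control libraries and 47.5, 50.3 and 46.6 in lactic acidosis.

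KRT5, the basal keratin, was at 21.9, 35.0 and 38.1 in the control libraries and 3.30, 3.04 and 3.37 in lactic acidosis (log2 difference -2.91, SE 0.20, limma adjusted p = 3.62e-05). HEY1, a Notch target repressor, was at 18.9 to 23.8 in control and 2.15 to 2.63 in lactic acidosis, NEURL1B, a ubiquitin ligase of Notch ligands, at 7.25 to 8.96 in control and 0.54 to 0.59 in lactic acidosis, and GPNMB, a transmembrane glycoprotein, at 7.78 to 10.1 in control and 0.23 to 0.56 in lactic acidosis. ELF3, an epithelial ETS factor, was at 35.2 to 56.7 in control and 6.84 to 7.96 in lactic acidosis, and FGFR3, a fibroblast growth factor receptor, at 14.2 to 30.7 in control and 2.87 to 3.83 in lactic acidosis. LURAP1L, RCSD1 and the histone HIST3H2A completed the 12 largest falls, with log2 differences of -2.47, -2.38 and -2.47. Lack of overlap was part of how these were chosen as well.

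**Figure D3:**
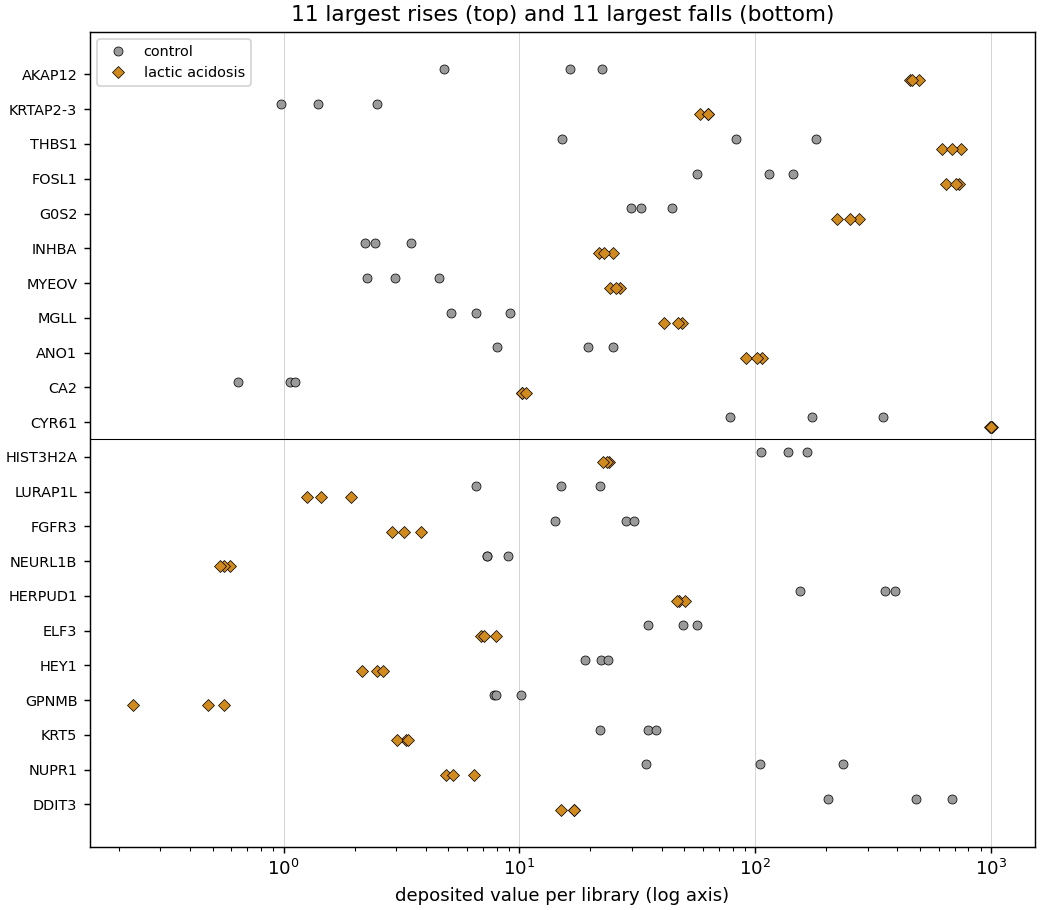
Deposited value in each library (log axis) of the 11 genes with the largest rise, above the line, and the 11 with the largest fall, below it, with grey circles for control and orange diamonds for lactic acidosis. The groups do not overlap in these genes, which were chosen for that, and the control circles of DDIT3, NUPR1 and THBS1 lie far apart.

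Genes of growth factor signalling through the MAP kinases were mostly higher. Of the list of EGFR ligands, receptors and MAPK feedback genes 17 of 33 were in the table, and 14 rose and 1 fell (rescaled 14 higher and 3 lower, centred 9 higher and 3 lower), with a median log2 difference of 1.11 against 0.45 over the table. The member that fell, the receptor gene ERBB3 (-0.44), kept its call when control replicate 1 was left out and lost it when any other library was. EREG (epiregulin) and TGFA are ligands of the EGF receptor. EREG was at 65.7, 63.1 and 46.8 in the control libraries and 269, 332 and 247 in lactic acidosis (log2 difference 2.25, SE 0.18), and TGFA was at 17.1, 29.8 and 34.9 in the control libraries and 78.5, 91.6 and 76.8 in lactic acidosis (log2 difference 1.61). DUSP4 and DUSP6 are phosphatases that ERK signalling induces and that switch MAP kinases off. DUSP4 was at 52.9, 50.8 and 56.3 in the control libraries and 242, 254 and 244 in lactic acidosis (log2 difference 2.19, SE 0.12, limma adjusted p = 1.35e-05), its control libraries lying close together, and DUSP6 was at 26.3 to 61.5 in control and 127 to 151 in lactic acidosis. Of the list of AP-1 and immediate early factors 10 of 22 were in the table, of which 6 rose and 4 fell on all of the scales. BATF3 was at 0.93 to 1.86 in control and 5.74 to 6.79 in lactic acidosis and KLF6, a zinc finger factor, at 18.6 to 29.4 in control and 76.0 to 85.1 in lactic acidosis. Those that fell were ATF3, KLF4, JUNB and ATF2, with log2 differences of -1.66, -0.67, -0.50 and -0.38. ATF2 overlapped between the groups.

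Most called genes of the TGF-beta, BMP and activin list rose, INHBA among them. Of the list 11 of 38 were in the table, and 7 rose and 1 fell (rescaled 8 higher and 3 lower, centred 5 higher and 3 lower, and 3 lower without control replicate 1). FST (follistatin), a secreted inhibitor of activin, was at 39.99, 58.5 and 79.3 in the control libraries and 299.5, 274 and 259.8 in lactic acidosis (log2 difference 2.26, SE 0.22). TGFB2, a ligand, was at 2.13 to 4.83 in control and 8.89 to 11.1 in lactic acidosis and TGFBR2, the receptor that binds TGF-beta, at 10.02 to 18.8 in control and 31.9 to 41.7 in lactic acidosis. ID1, a target of BMP signals, was the list member that fell as deposited, at 91.8 to 117 in control and 56.8 to 59.8 in lactic acidosis. INHBE, an activin subunit gene outside the list, went the other way from INHBA. Its rescaled control libraries lay 2.71, 1.99 and 0.99 above the lactic acidosis mean on the log2 scale. Of the fibroblast, platelet-derived and other growth factor list 19 of 40 were in the table, and 11 rose and 7 fell (rescaled 11 higher and 8 lower, centred 8 higher and 8 lower). FGF5, a ligand, was at 0.09 to 0.75 in control and 3.13 to 3.79 in lactic acidosis, and FGFBP1, which releases fibroblast growth factors from matrix, at 25.04 to 62.3 in control and 118 to 132 in lactic acidosis. Both fibroblast growth factor receptors of the list that were in the table fell, FGFR3 with a log2 difference of -2.49 and FGFR2 with -0.78, as did INSR, the insulin receptor, with -0.91. EFNB2, an ephrin ligand, was at 11.99 to 24.5 in control and 63.7 to 74.95 in lactic acidosis.

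Of the NF-kappaB list 6 of 24 were in the table, and 5 rose and 1 fell (rescaled 5 higher and 1 lower, centred 4 higher and 1 lower), led by MAP3K14, the kinase of the non-canonical branch, at 6.36 to 15.9 in control and 24.9 to 28.2 in lactic acidosis. Of the Wnt list 8 of 39 were in the table and 4 rose and 3 fell (rescaled 4 higher and 4 lower, centred 2 higher and 4 lower, and 2 higher without lactic acidosis replicate 2). The ligands WNT7A and WNT7B rose by log2 differences of 0.94 and 0.91, while WNT10A, the receptor FZD2 and the factor TCF7 had -0.67, -0.65 and -0.90. Of the Notch list 5 of 27 were in the table, and 2 rose and 3 fell (rescaled 2 higher and 3 lower, centred 1 higher and 3 lower). Besides HEY1, the target HES1 fell (39.9 to 51.2 in control and 24.2 to 29.8 in lactic acidosis), while HES2 and MFNG, which adds sugars to Notch receptors, rose by 0.63 and 0.99 on the log2 scale. The call of HES2 was lost when centred, and 1 of the pair passed without any 1 of the lactic acidosis libraries.

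Most genes of adhesion, matrix and the cytoskeleton that the submitters kept in the table rose. Of the YAP and TAZ target list 15 of 26 were in the table, and 13 rose and 1 fell (rescaled 14 higher and 1 lower, centred 10 higher and 1 lower), with a median log2 difference of 1.06. F3, the tissue factor that starts coagulation, was at 131, 379 and 631 in the control libraries and 1739, 1968 and 1728 in lactic acidosis (log2 difference 2.52, SE 0.46). CTGF, a classic YAP target, was at 1.75 to 3.07 in control and 9.51 to 10.1 in lactic acidosis, and NT5E (CD73), which makes adenosine from AMP, at 32.7 to 69.3 in control and 147 to 183 in lactic acidosis. AMOTL2, a negative regulator of YAP, was the member that fell (72.7 to 96.1 in control and 51.0 to 60.8 in lactic acidosis).

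Of 17 integrin and focal adhesion genes in the table, 15 rose and 0 fell (rescaled 15 higher and 1 lower, centred 10 higher and 2 lower). TNS4, a tensin that links integrins to signalling, was at 10.1, 33.9 and 49.5 in the control libraries and 139, 168 and 157 in lactic acidosis (log2 difference 2.52, SE 0.46). Integrin subunits rose by smaller steps, with log2 differences of 1.36 for ITGB6, 1.27 for ITGB5 and 1.19 for ITGA6. Of the matrix list 24 of 68 were in the table, and 19 rose and 4 fell (rescaled 19 higher and 4 lower, centred 15 higher and 4 lower). LOXL2, which cross-links collagen, was at 6.58 to 20.5 in control and 51.4 to 55.3 in lactic acidosis and ADAM8, a membrane metalloprotease, at 9.01 to 9.73 in control and 33.6 to 37.9 in lactic acidosis. The collagenases MMP13 and MMP1 went the other way, MMP13 at 1.13 to 3.41 in control and 0.45 to 0.61 in lactic acidosis and MMP1 at 4.14 to 4.71 in control and 1.49 to 2.29 in lactic acidosis. Of 21 actin cytoskeleton genes in the table, 19 rose and 2 fell (rescaled 19 higher and 2 lower, centred 8 higher and 2 lower, and 1 lower without control replicate 2 or any 1 of the lactic acidosis libraries). CNN3 (calponin 3) was at 23.5, 49.3 and 63.6 in the control libraries and 141, 164 and 146 in lactic acidosis, and FSCN1, which bundles actin in filopodia, and MSN (moesin), which ties actin to the membrane, had log2 differences of 1.26 and 1.25.

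Cell junction genes were mixed. Of the list 16 of 54 were in the table, and 8 rose and 6 fell (rescaled 8 higher and 7 lower, centred 4 higher and 7 lower, and 5 higher without lactic acidosis replicate 2). GJA1, a gap junction connexin, rose, at 6.29 to 14.5 in control and 33.4 to 43.4 in lactic acidosis. The tight junction genes CLDN3 and TJP3 fell, CLDN3 at 4.09 to 7.64 in control and 1.10 to 1.17 in lactic acidosis and TJP3 at 8.48 to 11.02 in control and 3.13 to 3.91 in lactic acidosis. ESRP1, a splicing factor of epithelial cells, fell, at 111 to 161 in control and 60.1 to 71.8 in lactic acidosis, and the desmosomal cadherin DSG3 had a log2 difference of -0.76. Of the mesenchymal list 6 of 24 were in the table, of which 4 rose and 1 fell (rescaled 4 higher and 2 lower, centred 4 higher and 2 lower). VIM (vimentin) was at 3.07 to 4.40 in control and 8.03 to 11.2 in lactic acidosis, low beside the keratin KRT19, which was at 2799 to 4419 in control and 2596 to 3067 in lactic acidosis and was not called as deposited (limma adjusted p = 0.09), but was called lower when rescaled, centred or without control replicate 1.

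Of the list of keratins and keratinocyte envelope genes 13 of 45 were in the table, and 9 rose and 3 fell (rescaled 9 higher and 4 lower, centred 8 higher and 4 lower). Besides KRT5, the calprotectin pair fell together, S100A8 at 8.62 to 12.2 in control and 2.26 to 3.01 in lactic acidosis and S100A9 at 23.8 to 37.4 in control and 7.88 to 10.3 in lactic acidosis, while TGM2, a transglutaminase that cross-links proteins, rose, at 16.2 to 46.1 in control and 86.3 to 98.6 in lactic acidosis. Mucin and cystatin genes moved apart: MUC1 was at 1.41 to 2.30 in control and 0.33 to 0.35 in lactic acidosis and the secreted protease inhibitor CST4 at 0 to 0.52 in control and 6.13 to 7.62 in lactic acidosis, with 1 control library listed at 0.

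Coagulation and complement genes moved both ways. Of the list 12 of 27 were in the table, and 7 rose and 5 fell (rescaled 7 higher and 5 lower, centred 5 higher and 5 lower). Besides F3, PLAUR (the urokinase receptor) was at 13.6, 14.2 and 14.2 in the control libraries and 54.5, 53.6 and 49.7 in lactic acidosis (log2 difference 1.83, SE 0.12, limma adjusted p = 3.62e-05), with control libraries close together. Among those that fell, the complement genes C1R and C5 and PROS1, the anticoagulant protein S, had log2 differences of -0.89, -0.50 and -0.53. CFB (log2 difference -1.27) shared 75% of its windows with another gene, so its own level is uncertain. Without control replicate 2 or lactic acidosis replicates 2 or 3, 3 of the 5 stayed past the threshold in each case.

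**Figure D4:**
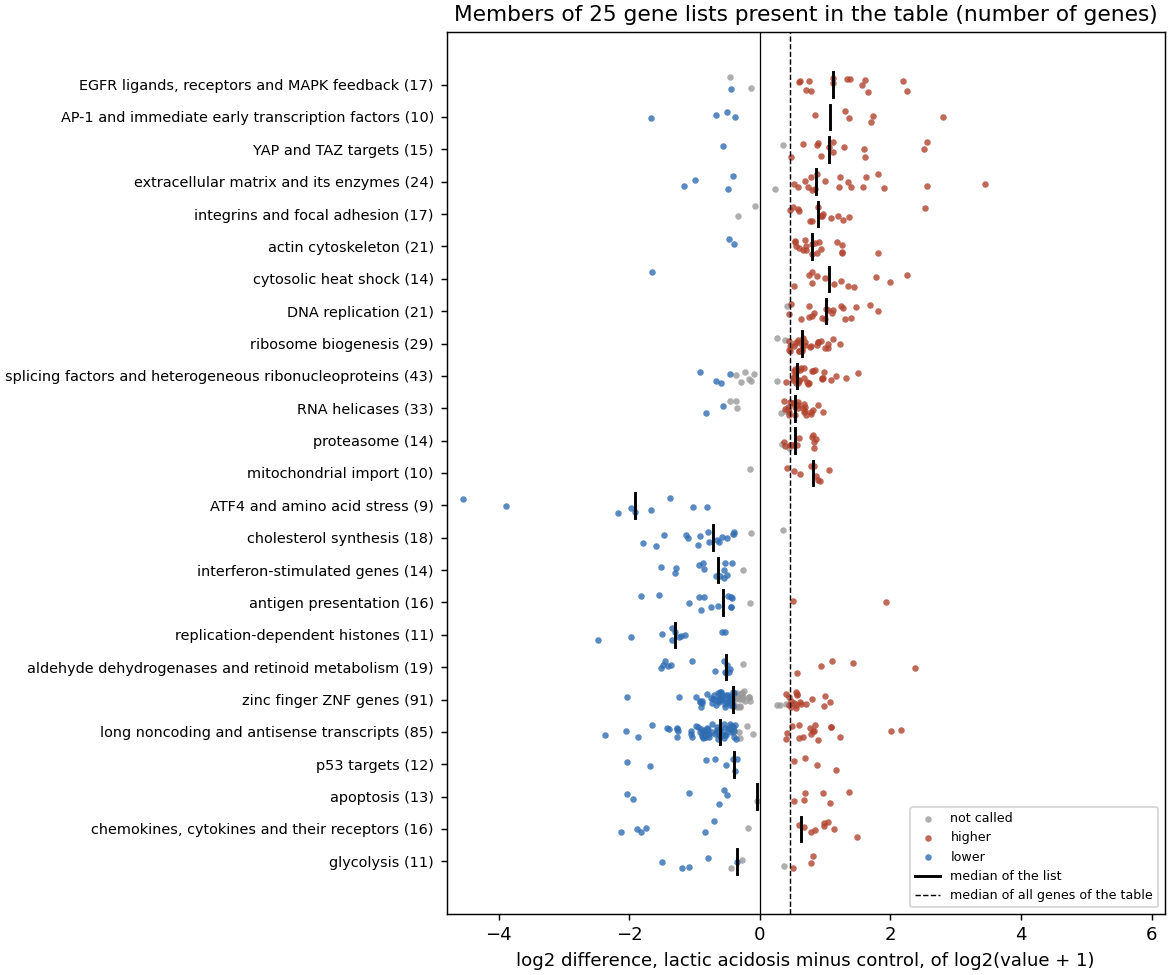
Log2 difference, lactic acidosis minus control, of each member of 25 gene lists that was in the table (number in brackets), coloured by call, with the list median as a black bar and the table median of 0.45 as a dashed line. The medians of heat shock (1.07), replication (1.02) and matrix (0.86) genes lie right of the dashed line, and those of ATF4 targets (-1.92), cholesterol (-0.72) and interferon genes (-0.64) lie left of 0.

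Cytosolic heat shock genes and ATF4 targets moved in opposite directions. Of the heat shock list 14 of 22 were in the table, and 13 rose and 1 fell (rescaled 13 higher and 1 lower, centred 12 higher and 1 lower). HSPA2, a chaperone of the HSP70 family, was at 2.32, 3.46 and 5.42 in the control libraries and 16.4, 17.5 and 17.8 in lactic acidosis (log2 difference 2.00, SE 0.22). HSPA1A and HSPA1B shared 70% of their windows, most often with each other, so they are read together, at 51.8 to 115 in control and 344 to 379 in lactic acidosis for HSPA1A and 55.3 to 105 in control and 252 to 271 in lactic acidosis for HSPA1B. HSPB1, the small heat shock protein HSP27, was the exception and fell (158 to 196 in control and 50.3 to 60.9 in lactic acidosis, log2 difference -1.66). All 9 members of the ATF4 list in the table, of 26 on it, fell on each scale, with a median log2 difference of -1.92. CHAC1, which degrades glutathione, was at 51.6, 78.6 and 54.5 in the control libraries and 11.1, 15.6 and 11.48 in lactic acidosis, and SESN2, a sestrin that restrains the growth kinase complex mTORC1, was at 26.2 to 48.6 in control and 7.74 to 9.70 in lactic acidosis. Of the endoplasmic reticulum unfolded protein list 2 of 22 were in the table, HERPUD1 and the chaperone CANX, and both fell on each scale.

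Of the p53 target list 12 of 20 were in the table, and 4 rose and 8 fell (rescaled 4 higher and 8 lower, centred 3 higher and 8 lower). With 1 library left out, 5 in place of 8 fell in all cases but that of control replicate 1. BBC3 (PUMA), a killer protein of the BH3-only family, was at 31.6, 27.2 and 16.3 in the control libraries and 4.83, 4.95 and 5.68 in lactic acidosis (log2 difference -2.03, SE 0.22), and TP53INP1 was at 3.79 to 5.09 in control and 0.57 to 0.84 in lactic acidosis. The members that rose were AEN, TIGAR, ZMAT3 and FAS, with log2 differences of 1.16, 0.88, 0.69 and 0.53. In the apoptosis list, 13 of 33 in the table, 6 rose and 6 fell (rescaled 6 higher and 6 lower, centred 3 higher and 7 lower). HRK and BMF, also of the BH3-only family, were at 4.24 to 6.90 in control and 0.64 to 0.80 in lactic acidosis for HRK and 1.29 to 3.48 in control and 0.28 to 0.65 in lactic acidosis for BMF, and BCL2L1, which encodes the survival protein BCL-XL, was at 181, 179.7 and 182 in the control libraries and 459, 486 and 463 in lactic acidosis (log2 difference 1.37, SE 0.12, limma adjusted p = 7.35e-05). Its control libraries lay close together.

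Genes of DNA replication were higher. Of the list 21 of 44 were in the table, and 20 rose and 0 fell (rescaled 21 higher and 0 lower, centred 12 higher and 0 lower, and 12 higher without lactic acidosis replicate 2). UHRF1, which guides DNA methylation to new strands, was at 10.8, 38.7 and 55.2 in the control libraries and 104, 101 and 104 in lactic acidosis (log2 difference 1.81, SE 0.47), and MCM10, a replication factor, was at 3.52, 11.5 and 16.7 in the control libraries and 29.9, 33.7 and 30.3 in lactic acidosis. FEN1, the flap nuclease of lagging strands, was at 45.0 to 107 in control and 178 to 206 in lactic acidosis. Control replicate 1 was the lowest library in all of these genes and control replicate 3 the highest control. Of the cyclin and inhibitor list 8 of 19 were in the table, and 6 rose and 2 fell (rescaled 6 higher and 2 lower, centred 5 higher and 2 lower). The 6 that rose included CCND1 (32.4 to 71.9 in control and 192 to 202 in lactic acidosis), CCND2 and CCND3, the D-type cyclins that carry growth signals into the cycle. The inhibitors CDKN1B (p27) and CDKN2D fell, with log2 differences of -0.50 and -0.45, and neither passed the threshold without lactic acidosis replicate 3. Of the mitosis list 4 of 27 were in the table, all called higher (rescaled 4 higher and 0 lower, and 2 without lactic acidosis replicate 2 or 3). AURKB (1.08) and KIF23 (1.04) kept that call when centred, and CENPA and UBE2C turned to -0.01 and -0.05. The list leaves out other mitotic genes of the table, among them KIF18B, INCENP and SPC24. Rescaled control values of these all lay below the lactic acidosis mean. DNA repair genes, 11 of 30 in the table, were called as follows: 9 rose and 0 fell (rescaled 9 higher and 2 lower, centred 4 higher and 2 lower), led by the nuclease EXO1 (6.39 to 18.8 in control and 26.8 to 31.2 in lactic acidosis).

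Histone genes that are normally made during replication went the other way. All 11 in the table, of 23 on the list, fell on each scale, with a median log2 difference of -1.30. HIST3H2A was at 166, 137 and 105 in the control libraries and 23.9, 23.5 and 22.6 in lactic acidosis and HIST1H2BD was at 59.7, 58.5 and 71.9 in the control libraries and 19.9, 23.1 and 22.3 in lactic acidosis. Transcripts of these genes mostly lack a poly(A) tail, and poly(A) selection takes only the tailed share. The part of that in these values was not tested. HIST1H3D and HIST2H2AA3 had all windows in common with other genes, and their single levels are uncertain.

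Interferon-stimulated and antigen presentation genes were lower. Of the interferon list 14 of 46 were in the table, and 0 rose and 13 fell (rescaled 0 higher and 14 lower, centred 0 higher and 14 lower), with a median log2 difference of -0.64. CXCL10 and CXCL11 are chemokines that draw T cells. CXCL10 was at 4.68, 10.5 and 11.1 in the control libraries and 3.03, 1.89 and 1.87 in lactic acidosis (log2 difference -1.52, SE 0.28), CXCL11 was at 6.35 to 16.9 in control and 2.93 to 4.92 in lactic acidosis and IFIT2, which blocks viral RNA translation, at 24.5 to 47.4 in control and 12.9 to 14.3 in lactic acidosis. Of the antigen presentation list 16 of 27 were in the table, and 2 rose and 13 fell (rescaled 2 higher and 14 lower, centred 1 higher and 14 lower). The invariant chain CD74 was at 19.9, 25.5 and 20.2 in the control libraries and 5.55, 5.12 and 5.67 in lactic acidosis (log2 difference -1.82, SE 0.14, limma adjusted p = 4.76e-05), and the class II chain HLA-DRA was at 1.72 to 2.52 in control and 0.25 to 0.63 in lactic acidosis. CD274 (PD-L1), the ligand that restrains T cells, went against the list and was at 1.92, 2.89 and 2.72 in the control libraries and 12, 13.4 and 11.4 in lactic acidosis (log2 difference 1.93, SE 0.15, limma adjusted p = 4.76e-05). TAP2 also rose (0.51), with 35% of its windows shared, and its call was lost when centred. HLA-F (log2 difference -1.54) shared 37.5% of its windows with other genes.

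Interferon-regulated promoters carry a motif bound by interferon regulatory factors and STAT complexes, here searched on both strands as GAAA, any 2 bases and GAAA, from 250 bases before to 50 bases after the first RefSeq start of each gene (GRCh38.p14). It was found in 7 of 12 interferon-stimulated genes with a window and in 6 of 11 antigen presentation genes, against 3.65% of all RefSeq genes. It was in 7.43% of the genes at least 2-fold lower and 0.949% of those at least 2-fold higher, against 2.76% of the table's genes with a window. A match is a description of letters and not a bound site. The promoters below are shown because CXCL10 and IFIT3 fell and CD274 rose while all carry the motif. They are the 250 bases before the start, 5′ to 3′ on the gene's strand, with the motif in capitals, at chr4:76023498-76023747, minus strand for CXCL10, chr10:89327747-89327996, plus strand for IFIT3 and chr9:5450292-5450541, plus strand for CD274.
CXCL10: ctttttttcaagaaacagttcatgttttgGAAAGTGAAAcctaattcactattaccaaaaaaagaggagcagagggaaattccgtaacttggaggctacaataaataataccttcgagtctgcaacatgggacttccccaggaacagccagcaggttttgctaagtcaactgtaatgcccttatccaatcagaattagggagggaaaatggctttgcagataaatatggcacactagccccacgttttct
IFIT3: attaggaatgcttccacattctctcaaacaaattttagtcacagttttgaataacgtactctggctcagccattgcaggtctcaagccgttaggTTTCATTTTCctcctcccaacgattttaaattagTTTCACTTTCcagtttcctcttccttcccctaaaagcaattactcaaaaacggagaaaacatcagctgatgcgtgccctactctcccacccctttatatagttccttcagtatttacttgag
CD274: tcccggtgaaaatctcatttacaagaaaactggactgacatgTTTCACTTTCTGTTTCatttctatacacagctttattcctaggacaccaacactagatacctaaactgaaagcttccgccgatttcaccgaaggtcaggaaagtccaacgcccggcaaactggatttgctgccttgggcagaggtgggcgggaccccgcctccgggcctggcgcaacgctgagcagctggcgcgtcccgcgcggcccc

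The E2F motif of cell cycle promoters, searched as TTTNNCGC, was found in 12 of 19 replication genes with a window against 10.5% of the table's genes with a window and 6.9% of all RefSeq genes. The amino acid response element that ATF4 binds, searched as TGATGNAA, was in 2 of 6 ATF4 list genes with a window, ATF3 and CHAC1, against 1.77% and 3.67%. PCNA, the sliding clamp of replication (chr20:5126623-5126872, minus strand), which rose, at 114 to 297 in control and 431 to 459 in lactic acidosis, and CHAC1 (chr15:40953221-40953470, plus strand) are shown as one example of each, with the motif in capitals. The AP-1 motif TGANTCA was in 7.28% of genes at least 2-fold higher and 9.41% of those at least 2-fold lower, against 5.25% of the table's genes with a window and 7.76% of all RefSeq genes. The sterol motif TCACNCCAC was in 0 of 13 cholesterol genes with a window, which says only that these letters are not in those windows.
PCNA: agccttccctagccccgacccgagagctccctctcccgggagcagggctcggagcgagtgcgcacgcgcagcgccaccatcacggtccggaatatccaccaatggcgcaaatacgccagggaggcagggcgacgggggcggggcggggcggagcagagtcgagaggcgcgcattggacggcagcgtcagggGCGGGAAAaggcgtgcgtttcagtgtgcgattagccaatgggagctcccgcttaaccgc
CHAC1: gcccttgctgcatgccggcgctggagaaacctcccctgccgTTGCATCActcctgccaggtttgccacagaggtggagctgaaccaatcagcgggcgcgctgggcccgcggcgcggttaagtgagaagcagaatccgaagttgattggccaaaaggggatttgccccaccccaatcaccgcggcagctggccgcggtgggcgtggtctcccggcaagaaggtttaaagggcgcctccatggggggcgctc

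Chemokine and cytokine genes moved both ways. Of the list 16 of 51 were in the table, and 9 rose and 6 fell (rescaled 9 higher and 7 lower, centred 5 higher and 7 lower). TNFSF10 (TRAIL), a death ligand, was at 13.9, 27.0 and 32.3 in the control libraries and 4.56, 4.93 and 4.06 in lactic acidosis (log2 difference -2.12, SE 0.27). CXCL1, which draws neutrophils, was at 3.46 to 6.53 in control and 0.19 to 1.10 in lactic acidosis, IL1RN, the interleukin 1 receptor antagonist, at 8.97 to 10.3 in control and 1.61 to 2.68 in lactic acidosis, and CX3CL1 at 3.52 to 4.35 in control and 0.38 to 0.62 in lactic acidosis. None of these overlapped between the groups, which held for 90.2% of all genes of the table.

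Genes that make ribosomes rose by small steps, while genes that process RNA rose by little more than the median of all genes. Splicing factors and RNA helicases had median log2 differences of 0.57 and 0.54. The median was 0.45 over all genes and 0.54 in the highest of the 5 bins by level. Centred, the calls of both lists were split between higher and lower. Of the ribosome biogenesis list 29 of 43 were in the table, and 27 rose and 0 fell (rescaled 28 higher and 0 lower, centred 11 higher and 0 lower), with a median log2 difference of 0.65. URB2 was at 5.46, 10.5 and 12.3 in the control libraries and 19.3, 26.5 and 22.1 in lactic acidosis, and UTP15, RRP1B and NOLC1, all factors of the nucleolus, had log2 differences of 1.12, 1.04 and 1.04. Of 43 genes of the splicing factor and ribonucleoprotein list in the table, 32 rose and 4 fell (rescaled 32 higher and 10 lower, centred 12 higher and 10 lower, and 8 lower without control replicate 1). HNRNPA1P10, among the 4 that fell, is a pseudogene with 77.5% of its windows shared, most often with HNRNPA1. RBM14 was at 7.66, 16.4 and 21.3 in the control libraries and 38.8, 43.7 and 41.5 in lactic acidosis (log2 difference 1.5, SE 0.30), the SR protein SRSF2 was at 141 to 229 in control and 439 to 463 in lactic acidosis and SRSF7 at 69.8 to 121 in control and 203 to 214 in lactic acidosis. Of 33 RNA helicases 26 rose and 2 fell (rescaled 28 higher and 5 lower, centred 5 higher and 5 lower, with 15 to 17 higher without 1 of the lactic acidosis libraries and 5 lower without control replicate 1). DDX24 was at 61.7 to 123 in control and 176 to 191 in lactic acidosis, and DHX58, a helicase of the interferon response, fell (2.51 to 3.99 in control and 1.20 to 1.6 in lactic acidosis).

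Of 14 genes of the proteasome list in the table, 12 rose and 0 fell (rescaled 14 higher and 0 lower, centred 4 higher and 0 lower, and 7 higher without lactic acidosis replicate 2). The list was drawn by gene name and also holds PSMC3IP, whose product is no proteasome subunit. The regulatory subunit PSMD1 was at 55.6 to 109.6 in control and 140.4 to 151 in lactic acidosis and PSMD12 at 81.9 to 141 in control and 182 to 211 in lactic acidosis. Of 10 genes of protein import into mitochondria 9 rose and 0 fell (rescaled 9 higher and 1 lower, centred 6 higher and 1 lower), with TOMM40L at 7.84 to 11.7 in control and 21.6 to 22.5 in lactic acidosis and the inner membrane carrier translocase TIMM22 at 24.9 to 29.2 in control and 48.0 to 53.7 in lactic acidosis. Of 27 translation factors 17 rose and 5 fell (rescaled 18 higher and 6 lower, centred 4 higher and 7 lower). EIF4E, which binds the mRNA cap, was at 32.7 to 52.4 in control and 68.8 to 77.8 in lactic acidosis, and the helicase EIF4A2 fell (698 to 879 in control and 429 to 498 in lactic acidosis). Of 13 genes of the mitochondrial ribosome list 9 rose and 4 fell (rescaled 9 higher and 4 lower), but 0 higher and 4 lower when centred, 5 higher without lactic acidosis replicate 2, and 1 or 2 lower without control replicate 2 or any 1 lactic acidosis library. MRPS31P5, among the 4 that fell, is a pseudogene. Cytosolic ribosomal protein genes were few in the table, 4 in all (rescaled 1 higher and 3 lower, centred 0 higher and 3 lower), with RPL29 (-0.65), RPS27L and RPS4X lower and RPL7L1, a ribosomal protein-like gene, higher (0.63), and 1 was lower without lactic acidosis replicate 1 or 3.

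Genes of cholesterol synthesis fell. Of the cholesterol synthesis list 18 of 25 were in the table, and 0 rose and 15 fell (rescaled 1 higher and 17 lower, centred 0 higher and 17 lower). INSIG1, the sterol-sensing brake on cholesterol synthesis, was at 31.5, 36.1 and 39.5 in the control libraries and 9.01, 10.4 and 9.30 in lactic acidosis (log2 difference -1.79, SE 0.14, limma adjusted p = 4.69e-05). STARD4, a sterol carrier, was at 28.2 to 37.6 in control and 10.2 to 12.3 in lactic acidosis, and MSMO1, a late enzyme of the pathway, at 84.2 to 104 in control and 38.4 to 47.9 in lactic acidosis. Of the list of sterol export and sensing genes 6 of 13 were in the table, and 1 rose and 2 fell (rescaled 1 higher and 5 lower, centred 0 higher and 5 lower), with 5 lower without control replicate 1 and 0 higher without any 1 of the lactic acidosis libraries. Of the fatty acid synthesis list 7 of 20 were in the table, and 2 rose and 4 fell (rescaled 2 higher and 5 lower, centred 0 higher and 5 lower), with 1 higher without control replicate 2 or lactic acidosis replicates 1 or 2. SCD, the desaturase that makes oleate, was its only member to fall by 2-fold or more (445 to 716 in control and 232 to 276 in lactic acidosis, log2 difference -1.28). PPARGC1A, a coactivator of mitochondrial oxidation genes, was at 2.79 to 4.55 in control and 0.34 to 0.53 in lactic acidosis, while CPT1A, which admits fatty acids to mitochondria, rose by 0.84 on the log2 scale.

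Among genes that handle lactate, protons and bicarbonate, CA2 alone was called at 2-fold or more on the deposited scale. Of the list 11 of 38 were in the table, and 8 rose and 2 fell (rescaled 8 higher and 3 lower, centred 3 higher and 3 lower). Without any 1 of the lactic acidosis libraries, 5 rose. The proton-gated channel ASIC1 was at 2.75 to 4.84 in control and 7.43 to 8.41 in lactic acidosis, and the monocarboxylate transporters SLC16A7 (MCT2) and SLC16A3 (MCT4) were at 2.09 to 4.19 in control and 5.46 to 6.77 in lactic acidosis and 169 to 227 in control and 280.3 to 326 in lactic acidosis. The bicarbonate transporter SLC4A8 and the mitochondrial anhydrase CA5B fell, with log2 differences of -0.44 and -0.41, SLC4A8 from values under 1, and without a library other than control replicate 1 at most 1 of the pair passed. Of the glycolysis list 11 of 33 were in the table, and 3 rose and 5 fell (rescaled 4 higher and 7 lower, centred 0 higher and 7 lower). ENO2 was at 4.68 to 17.1 in control and 2.37 to 3.46 in lactic acidosis, ALDOC at 27.8 to 58.4 in control and 17.1 to 20.7 in lactic acidosis, and PDK2, which shuts pyruvate out of the citrate cycle, at 14.2 to 15.8 in control and 6.21 to 7.12 in lactic acidosis, with 60% of the windows of PDK2 shared with another gene. PFKP, PFKFB3 and PFKFB2, which set the flux at phosphofructokinase, rose by 0.81, 0.78 and 0.51, and none of these calls held when centred.

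TXNIP and ARRDC4 are arrestins that the glucose sensor MondoA induces. TXNIP was at 2.42, 3.76 and 3.97 in the control libraries and 14.7, 15.9 and 15.1 in lactic acidosis (log2 difference 1.91, SE 0.17, limma adjusted p = 7.17e-05), and ARRDC4 was at 0.91 to 1.12 in control and 3.66 to 4.38 in lactic acidosis. Both rises were found on each scale. Of the hypoxia list 9 of 27 were in the table, and 4 rose and 3 fell (rescaled 4 higher and 5 lower, centred 2 higher and 5 lower, and 5 lower without control replicate 1). BNIP3, a mitophagy receptor, was at 0.39, 1.21 and 1.17 in the control libraries and 5.97, 7.24 and 6.26 in lactic acidosis (log2 difference 1.99), whereas the vasodilator peptide gene ADM fell (90.0 to 178 in control and 56.3 to 64.2 in lactic acidosis).

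Retinoid and aldehyde dehydrogenase genes split as well. Of the list 19 of 35 were in the table, and 5 rose and 13 fell (rescaled 5 higher and 14 lower, centred 4 higher and 14 lower). ALDH1A3, which makes retinoic acid, was at 88.3, 178 and 249.8 in the control libraries and 807, 855 and 801 in lactic acidosis (log2 difference 2.37, SE 0.31, limma adjusted p = 4.30e-04), and the carrier CRABP2 was at 10.3 to 17.2 in control and 36.6 to 41.3 in lactic acidosis. The retinol receptor STRA6 was at 2.42 to 6.18 in control and 0.66 to 0.93 in lactic acidosis and ALDH6A1, of valine breakdown, at 11.9 to 16.4 in control and 4.31 to 4.82 in lactic acidosis. The retinoic acid hydroxylases parted, CYP26A1 at 1.99 to 2.33 in control and 0 to 0.31 in lactic acidosis, with 1 library listed at 0, and CYP26B1 at 1.51 to 1.87 in control and 4.65 to 5.17 in lactic acidosis. Among xenobiotic genes, 10 of 37 in the table, 6 rose and 4 fell (rescaled 6 higher and 4 lower, centred 3 higher and 4 lower, and 3 higher without lactic acidosis replicate 2). AHR, the aryl hydrocarbon receptor, and its targets CYP1A1 and CYP1B1 fell together, with log2 differences of -0.99, -1.30 and -0.91, and CYP24A1, which inactivates vitamin D, was at 0.13 to 0.75 in control and 2.16 to 3.01 in lactic acidosis.

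Of the oxidative stress and glutathione list 7 of 27 were in the table, and 3 rose and 2 fell (rescaled 3 higher and 4 lower, centred 1 higher and 4 lower), with 4 lower without control replicate 1 and 1 lower without any other library. GSTP1, an abundant glutathione transferase, was at 697, 674 and 614 in the control libraries and 237, 235 and 253 in lactic acidosis (log2 difference -1.45, SE 0.13, limma adjusted p = 7.22e-05). Its groups did not overlap, like those of 90.2% of all genes of the table. Of nucleotide and one-carbon genes 14 of 29 were in the table, and 10 rose and 3 fell (rescaled 10 higher and 4 lower, centred 5 higher and 4 lower). CTPS1, which makes CTP, was at 31.3 to 41.4 in control and 76.7 to 81.5 in lactic acidosis, while the transketolase TKT was at 704 to 831 in control and 407 to 469 in lactic acidosis. The phosphate importer SLC20A1 was at 61.2 to 99.7 in control and 207 to 235 in lactic acidosis. Of 70 solute carrier genes in the table, 38 rose and 21 fell (rescaled 39 higher and 31 lower, centred 13 higher and 31 lower, and 25 higher without lactic acidosis replicate 2). These counts are near the table's shares of 55.3% higher and 30.8% lower. Of the amino acid transporter list 6 of 30 were in the table, and 3 rose and 3 fell (rescaled 3 higher and 3 lower, centred 1 higher and 3 lower, and 1 higher without lactic acidosis replicate 2). Among them SLC7A6 rose, with a log2 difference of 1.04 and 55% of its windows shared with another gene, and SLC1A4 and SLC43A1 had -1.40 and -1.54. In the lysosome list, 18 of 47 in the table, 5 rose and 7 fell (rescaled 5 higher and 11 lower, centred 1 higher and 12 lower), with 2 to 5 higher and 4 to 11 lower when 1 library was left out, 11 of them without control replicate 1. NEU1, a sialidase, was at 63.1 to 71.3 in control and 27.7 to 30.5 in lactic acidosis and ULK1, the kinase that starts autophagy, at 25.9 to 31.7 in control and 12.3 to 12.5 in lactic acidosis.

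Clock genes were called both ways. Of the list 8 of 20 were in the table, and 3 rose and 4 fell (rescaled 3 higher and 5 lower, centred 2 higher and 5 lower). The activators ARNTL2 (16.1 to 32.7 in control and 84.3 to 98.5 in lactic acidosis) and NPAS2 and the repressor CRY1 (13.1 to 14.7 in control and 30.8 to 39.5 in lactic acidosis) rose. The output factors DBP (9.32 to 12.3 in control and 2.25 to 2.87 in lactic acidosis) and TEF (6.47 to 8.69 in control and 1.98 to 2.20 in lactic acidosis) fell.

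Zinc finger genes named ZNF and long noncoding transcripts were mostly lower. Of 91 ZNF genes in the table, 18 rose and 46 fell (rescaled 19 higher and 69 lower, centred 5 higher and 70 lower), with 10 higher without lactic acidosis replicate 2 and 29 lower without lactic acidosis replicate 3. ZNF165, normally a testis gene, was at 26.7, 30.9 and 23.7 in the control libraries and 7.11, 5.34 and 5.25 in lactic acidosis (log2 difference -2.03). Of 85 long noncoding and antisense transcripts 17 rose and 61 fell (rescaled 17 higher and 66 lower, centred 11 higher and 68 lower). UNC5B-AS1 was at 6.37 to 9.33 in control and 0.44 to 1.06 in lactic acidosis, OSER1-AS1 at 9.43 to 11.4 in control and 1.33 to 2.57 in lactic acidosis, LINC01204 at 0.63 to 2.79 in control and 9.63 to 11.9 in lactic acidosis and MIR100HG at 0.30 to 0.68 in control and 5.03 to 5.39 in lactic acidosis. The library kit's strand setting is not given in the sources used here, so an antisense transcript cannot be told apart from its partner gene. Of 12 genes of the histone deacetylase and acetyltransferase list 2 rose and 6 fell (rescaled 2 higher and 9 lower, centred 0 higher and 10 lower, and 10 lower without control replicate 1, 0 higher without lactic acidosis replicate 2), with HDAC9 at 8.49 to 15.3 in control and 5.76 to 6.94 in lactic acidosis and HDAC5 at 20.6 to 29.9 in control and 13.7 to 15.7 in lactic acidosis. That list was drawn by gene name and also holds NCOA7, which encodes no such enzyme. Of 15 histone lysine methylation genes 8 rose and 4 fell (rescaled 8 higher and 5 lower, centred 2 higher and 6 lower, and 0 to 2 lower without any 1 library other than control replicate 1). The H3K9 methyltransferases SUV39H2 and SUV39H1 rose by 1.09 and 0.76, and the demethylases KDM4A, KDM4B and KDM4C had -0.43, -0.60 and -0.49. KDM4A shared 52.5% of its windows with another gene, so its own level is uncertain.

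Among the most abundant genes that were called, MT2A, a metallothionein that binds zinc and copper, was at 10975, 11333 and 12827 in the control libraries and 18310.1, 17264 and 18388 in lactic acidosis (log2 difference 0.62). ACTB rose (2465 to 3555 in control and 4917 to 5040.2 in lactic acidosis) while ACTG1, the other cytoplasmic actin, fell (4992 to 6083 in control and 3914 to 4258 in lactic acidosis), as did TMSB4X, which binds actin monomers (5337 to 5501 in control and 3614 to 4155 in lactic acidosis), and GAPDH (7688 to 9829 in control and 6439 to 7664 in lactic acidosis). These differences are under 2-fold on the deposited scale. PCDH10 was listed at 0 in all lactic acidosis libraries and at 0.32 to 0.44 in control. GTF2H2C was listed at 0 in all control libraries and at 1.23, 2.66 and 3.98 in lactic acidosis, with 82.5% of its windows shared with another gene.

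The bile duct markers of the table were SOX9, which rose (6.41 to 17.3 in control and 32.9 to 35.7 in lactic acidosis), SPP1, which fell (2.95 to 4.97 in control and 0.92 to 1.24 in lactic acidosis), and KRT19, and the other 4 of 7 markers are outside the table. No fibroblast, endothelial or neuron marker was in the table, and of leukocyte and hepatocyte markers 1 each, CD68 and SERPINA1. In bulk RNA fewer cells of a type and less RNA per cell cannot be told apart. Of 8 muscle markers 6 were in the table, and 0 rose and 2 fell on each scale, TNNT3 (6.79 to 12.7 in control and 2.57 to 6.55 in lactic acidosis) and MB (2.84 to 4.59 in control and 1.11 to 1.5 in lactic acidosis). Other muscle genes were high in lactic acidosis replicate 2 alone. ACTA1 was at 19.6 in that library against 0.35 to 1.03 in the other 5, CKM at 4.97 against 0.05 to 0.47 and MYL3 at 3.86 against 0 to 0.35. None of these 3 was called, and their part in other results was not tested. EIF3CL had a single value above 0, 39.4 in control replicate 1, and all of its windows are shared with another gene. PRPH, the neuronal filament peripherin, was not called either (0.06 to 2.30 in control and 0 to 0.23 in lactic acidosis).

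Genes were placed on GRCh38 through GENCODE release 29, which held 4095 of the 4279. Of the placed genes 59.3% were higher. Chromosome 3 had the lowest share, 115 of 251 genes (45.8%), and chromosome 16 the highest, 158 of 219 (72.1%). Within chromosome 3 the first 60 Mb held 26 higher genes of 105 (24.8%, median log2 difference -0.36) and the rest of the chromosome 89 of 146 (61.0%, median 0.42). On chromosome 6 from 20 to 30 Mb 3 of 26 genes were higher, and 9 of the 26 were histone genes, all lower. Elsewhere whole stretches leaned the other way, with 24 of 25 genes higher on chromosome 12 from 20 to 40 Mb, 31 of 35 on chromosome 10 up to 20 Mb and 67 of 81 on chromosome 16 beyond 60 Mb. In the lactosis table, from lactate medium at pH 7.4, 20 of 50 genes of the chromosome 3 stretch were higher, against 53 of 87 on the rest of the chromosome, and in the acidosis table, from HEPES medium at pH 6.5, 5 of 23 against 27 of 42. Those tables share the control libraries. The stretches were chosen after the values were seen and carry no test, and DNA copy number was not measured.

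**Figure D5:**
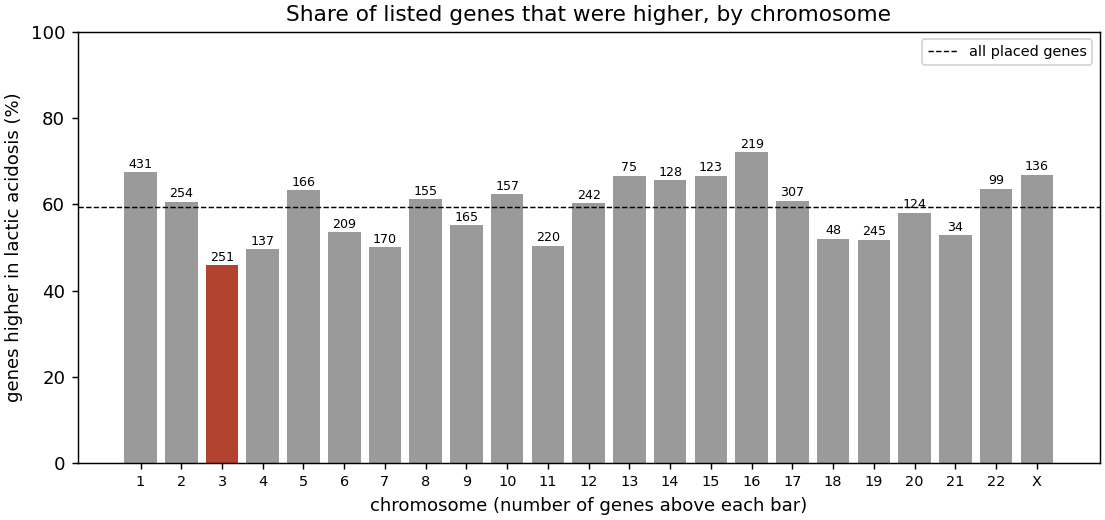
Percent of the table's genes with a higher mean in lactic acidosis on each chromosome, with the number of placed genes above each bar, chromosome 3 in red and the share over all placed genes, 59.3%, as a dashed line. Chromosome 3 has the lowest share, 45.8%.

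Of the 4279 genes 2344 (54.8%) were also in the lactosis table and 1304 (30.5%) also in the acidosis table, and 1673 (39.1%) were in neither. Log2 differences from control are set side by side here for genes in several tables, on the deposited scale and with the same control libraries, so they are not independent. DDIT3 had -4.55 here, -4.76 in the lactosis table and -3.64 in the acidosis table. CHAC1 had -2.18, -3.78 and -3.63, and TXNIP had 1.91, 1.51 and 2.30, in the same order. Other genes were ordered differently, with DUSP4 at 2.19, 0.73 and 0.41, AKAP12 at 5.14, 3.65 and 1.48, and KRT5 at -2.91, -0.98 and -1.30. INSIG1 had -1.79, -0.58 and -0.44. CA2 was in the lactic acidosis table alone, and whether it changed in the other media cannot be read from their tables. Opposite signs were seen in TGFB2 (1.29 against -0.77 in acidosis), S100A9 (-1.51 against 0.49 in acidosis) and PFKFB2 (0.51 against -0.52 in acidosis). The genes of this paragraph were picked after their values were seen, and the differences between treatments were not tested.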

How the data were processed

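Poly(A) RNA of KKU-213A cells was sequenced, and 3 control and 3 lactic acidosis libraries were used here. Per the submitters' processing notes the reads were aligned with STAR to hg38; the read counter is not given in the sources used here. The signal values that the authors deposited are, from their form, scaled for gene length and library, and whether they are TPM or FPKM is not stated, so read depth is unknown. The deposited table also holds signal columns with group means, which per the file headers carry EBSeq's names and were used to fit 1 scale factor per library (3830 genes). The factors were fitted to the ratio of these group means, so rescaled values are not independent of the submitters' comparison. The deposited fold-change and posterior probability columns were not used, and 0 columns of unmapped samples were present in the table.

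Log2(value + 1) was tested with limma 3.58.1 in R 4.3.3 (2-sided, no trend, Benjamini-Hochberg adjustment over 4279 genes), and the fit was also run on simulated data. The simulated data had few changed genes and the same spread in both groups, unlike these libraries. They do not test the calls made here. An exact permutation test of 3 libraries against 3 cannot go below p = 0.1. Members of 75 gene lists and the comparison itself were chosen with earlier results of these data known. Named genes were the 12 largest rises and 12 largest falls whose groups did not overlap, up to 4 members per list with the largest difference and those against the majority, the 5 largest uncalled, the 5 most abundant called, and genes at 0 in a whole group. Others named (PCNA, IFIT3, ERBB3, INHBE, KIF18B, INCENP, SPC24 and those of the paragraph that sets the treatments side by side) were picked after their values were seen. Shared sequence was scored over 40 windows of 75 bases per gene, and positions came from GENCODE release 29. Of the table's genes 3220 had a RefSeq promoter window. The main fit did not pair samples by replicate number. Some genes that this rule selects are not reported here.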

Additional observations from a re-analysis of the deposited data

How the results depend on the processing

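As deposited, 2368 genes were called higher, 1316 lower, 442 at least 2-fold higher and 307 at least 2-fold lower. Centred on the median, 1016 were higher, 134 at least 2-fold higher and 760 at least 2-fold lower, and 1301 genes lay higher without overlap in place of 2491. A pseudocount of 0.1 gave 556 genes at least 2-fold lower, and a pseudocount of 5 gave 213 at least 2-fold higher and 106 lower. With a mean of at least 10, where fewer genes were tested, 616 were lower, 116 at least 2-fold lower and 651 lower without overlap. At an adjusted p under 0.01, 1357 were higher and 875 lower. Rescaled by library weights, 2449 were higher and 1722 lower, with 318 and 371 at 2-fold, and with 1 library left out as well, chosen after seeing the data, 245 (without control replicate 1) to 421 were at least 2-fold higher. Leaving out 1 library on the deposited scale gave 1566 (without lactic acidosis replicate 2) to 2458 higher, 973 to 1693 lower, 246 (without control replicate 1) to 690 (without control replicate 3) at least 2-fold higher and 285 to 347 at least 2-fold lower. The causes were not tested.

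With a replicate block 2388 genes were higher and 1294 lower, 443 and 308 of them at 2-fold, and rescaled with the block 2396 and 1686. Deviations of same-numbered libraries correlated at 0.155, 0.0992 and -0.0832, and control replicate 3 correlated best with lactic acidosis replicate 2 (0.156). With 3 libraries per group these correlations cannot decide whether the samples were paired.

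Of 386 named genes 332 kept direction and call when centred, 40 lost the call, 4 gained it and 10 changed sign. The log2 differences of those were -0.1154 for ATP6V0E1, -0.01056 for CENPA, -0.06852 for HDAC8, -0.05357 for LINC00998, -0.04852 for ME1, -0.01556 for MGST1, -0.004824 for MLXIP, -0.1092 for NDUFS1, -0.02638 for OGDH and -0.04989 for UBE2C. Without lactic acidosis replicate 2, ACTA1 had -0.126 (rescaled -0.158), and with 1 library left out it reached 1.8. EIF3CL had 0 on both scales without control replicate 1, and -2.668 to 0 with 1 library left out. Without 1 library 0 to 57 named genes lost their call, the most without lactic acidosis replicate 2. Of 142 list counts, 64 moved by over 1.5 times when centred, 21 when rescaled and 9 to 37 with 1 library left out.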
